A study of Mus musculus with 15 samples.

Results

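Regions of liver chromatin carrying H3K27me3 at 30 h and at 40 h of liver regeneration in wild type mice were compared to ask where the mark had first come back and where it was still being lost. The regions are the islands that SICER, a caller for broad marks, drew from 1 ChIP-seq library at each time. On chromosomes 1 to 19, at a false discovery rate (FDR) of 0.01 or below, there were 11833 islands at 30 h and 12092 at 40 h, together 23925 of the 52418 islands deposited for 0, 30, 40 and 96 h. The 30, 40 and 96 h libraries belong to 1 round of the study with the 0 h library, and all came from liver of wild type (WT) C57Bl/6 mice aged 8 to 12 weeks on a normal diet. The labels name no transgene, drug or other agent in these groups, and they state neither how regeneration was started nor how many animals gave each library. Lists of H3K4me3 peaks from baseline liver of WT and of Uhrf1hepKO mice, whose hepatocytes lack Uhrf1, served here only to place and describe promoters.

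H3K27me3 is laid down on nucleosomes by Polycomb repressive complex 2 and is the mark of Polycomb silencing. In adult tissues it covers the promoters of genes of other lineages, above all developmental transcription factors rich in CpG dinucleotides, often as domains over whole gene clusters. After loss of liver mass hepatocytes leave quiescence and replicate their DNA, and newly deposited histones then have to acquire the mark again.

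With 1 library at each time there is no replicate check and no p-value between times. A promoter was called marked when an island touched the window of 1.0 kb either side of a gene's start. It was called regained when it was marked at 0 and 40 h and unmarked at 30 h, and lost after 30 h when it was marked at 0 and 30 h and unmarked at 40 h. Each share below is followed by its 95% limits (exact, Clopper-Pearson), which reflect counting error alone. Fewer cells carrying the mark and less of the mark in each cell cannot be told apart in whole liver.

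Of 20665 protein-coding promoters, 5880 were marked at 0 h, 3721 at 30 h, 3612 at 40 h and 5267 at 96 h. Behind the nearly equal totals at 30 and 40 h stood 690 regained promoters (11.7% of those marked at 0 h) and 833 lost after 30 h (14.2%). A further 2550 were marked at all 3 of these times, and 1807 were marked at 0 h and absent at both 30 and 40 h. The regained promoters were 27.6% of the 2497 that had been unmarked at 30 h, and the lost ones 24.6% of the 3383 that had been marked. These 2 percentages are the background against which the gene lists are given.

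Regained and lost promoters fared alike at the later time. At 96 h, 82.3% of the regained promoters (79.3 to 85.1) and 82.5% of those lost after 30 h (79.7 to 85.0) were marked. Promoters kept throughout were marked at 96 h in 94.6% of cases, and those absent at both 30 and 40 h in 56.7%. In the other WT baseline library of H3K27me3, 75.2% of the regained and 74.5% of the lost promoters were marked, so the classes also resembled each other in how often another library of baseline liver held them. H3K4me3, the mark of active and poised starts, was called in all 4 libraries at 29.1% of regained, 26.8% of lost, 17.5% of kept and 44.4% of absent promoters. The median count of CpG in the 300 bp around the start was 11 at regained, 9 at lost, 10 at kept and 14 at absent promoters, against 15 over all promoters with an annotated start.

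Among the regained promoters with the strongest 40 h islands, ranked by the authors' fold over control for the island, were Ace3, Ephx4, Kcnh6, Pygo1, Inpp5j, Foxf1, Hoxa10, Dlx1 and Gsc2. Of these, Hoxa10, Dlx1 and Gsc2 are homeobox genes, which encode transcription factors of body patterning and organ formation, and Foxf1 encodes a forkhead factor of the embryonic gut mesoderm. Those lost after 30 h with the strongest 30 h islands were Mdga2, Hes5, Spata45, Calcr, Sox18, Cnbd2, Adcy3, Mmp17, Ptx3 and Sox2. Hes5 encodes a transcriptional repressor induced by Notch, and Sox2 and Sox18 encode HMG-box transcription factors of neural and stem cells and of endothelium. The bases just upstream of 7 of these starts are shown because CpG-rich and CpG-poor starts are found among them in both the regained and the lost class. Each is 250 bases ending at the base before the annotated start, written 5′ to 3′ on the gene's strand from RefSeq sequences of GRCm38.p6, with CG in capitals.
Hoxa10: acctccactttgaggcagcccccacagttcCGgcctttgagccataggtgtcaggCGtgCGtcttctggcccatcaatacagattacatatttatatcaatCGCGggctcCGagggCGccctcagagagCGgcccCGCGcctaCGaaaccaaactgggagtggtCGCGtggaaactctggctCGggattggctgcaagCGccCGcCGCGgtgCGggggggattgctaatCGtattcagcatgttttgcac
Dlx1: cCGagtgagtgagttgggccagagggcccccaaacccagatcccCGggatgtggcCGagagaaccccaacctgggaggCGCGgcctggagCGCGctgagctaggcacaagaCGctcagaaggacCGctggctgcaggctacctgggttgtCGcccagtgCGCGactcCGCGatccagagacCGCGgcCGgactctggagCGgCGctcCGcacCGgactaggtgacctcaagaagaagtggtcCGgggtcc
Ephx4: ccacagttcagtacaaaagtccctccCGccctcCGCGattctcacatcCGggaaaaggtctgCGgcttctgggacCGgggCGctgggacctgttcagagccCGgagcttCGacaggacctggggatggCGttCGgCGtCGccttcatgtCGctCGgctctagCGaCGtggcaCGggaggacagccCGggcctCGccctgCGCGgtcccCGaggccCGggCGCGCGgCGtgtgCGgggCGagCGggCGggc
Ace3: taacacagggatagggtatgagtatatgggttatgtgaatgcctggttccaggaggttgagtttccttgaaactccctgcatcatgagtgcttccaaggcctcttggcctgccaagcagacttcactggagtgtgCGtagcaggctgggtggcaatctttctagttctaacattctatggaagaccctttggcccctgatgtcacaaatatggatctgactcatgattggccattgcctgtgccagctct
Hes5: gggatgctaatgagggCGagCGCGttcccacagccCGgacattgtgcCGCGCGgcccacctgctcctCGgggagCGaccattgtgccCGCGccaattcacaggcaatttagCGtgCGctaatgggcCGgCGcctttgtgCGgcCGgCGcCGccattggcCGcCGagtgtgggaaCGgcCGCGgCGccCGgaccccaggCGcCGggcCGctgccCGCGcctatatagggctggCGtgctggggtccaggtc
Sox2: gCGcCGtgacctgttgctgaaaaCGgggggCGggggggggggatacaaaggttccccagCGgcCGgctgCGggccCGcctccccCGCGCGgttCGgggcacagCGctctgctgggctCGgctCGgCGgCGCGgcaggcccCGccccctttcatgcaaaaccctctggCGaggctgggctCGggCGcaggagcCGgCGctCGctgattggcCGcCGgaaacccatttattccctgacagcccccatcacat
Spata45: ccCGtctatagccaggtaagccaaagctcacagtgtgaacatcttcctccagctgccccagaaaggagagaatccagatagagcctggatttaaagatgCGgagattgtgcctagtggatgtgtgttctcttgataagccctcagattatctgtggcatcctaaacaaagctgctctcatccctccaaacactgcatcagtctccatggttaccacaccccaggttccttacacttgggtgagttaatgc
Among the regained, the Hoxa10 stretch (chr6:52234940-52235189, minus strand) held 20 CG, the Dlx1 stretch (chr2:71529195-71529444, plus strand) held 22 and the Ephx4 stretch (chr5:107403263-107403512, plus strand) held 32, whereas the Ace3 stretch (chr11:105994399-105994648, plus strand) held 1. Among the lost, the Hes5 stretch (chr4:154960673-154960922, plus strand) held 32 CG, the Sox2 stretch (chr3:34649745-34649994, plus strand) 27 and the Spata45 stretch (chr1:191035659-191035908, plus strand) 2. CpG-rich and CpG-poor starts thus stood in both classes.

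At Ephx4, a member of the epoxide hydrolase family, the 0 h island held 512 ChIP reads over 9 kb at a fold of 2.18. No 30 h island lay within 44.5 kb of its promoter. The 40 h island (chromosome 5, 107401001 to 107408000) held 287 ChIP and 378 control reads at a fold of 2.22, and the 96 h island held 583 ChIP reads at a fold of 2.92. An island was thus present again at 40 h, shorter and with fewer ChIP reads than at 0 h. Control counts were not shared between the 0 h list and the later ones, so these folds are not strictly comparable with that of 0 h. Gsc2, a homeobox gene, behaved in the same way, with a 7 kb island at 0 h, none within 18.974 kb at 30 h and one of 6 kb at 40 h (244 ChIP and 345 control reads, fold 2.07). At Pygo1, which encodes a cofactor of Wnt signalling, the 40 h island of 6 kb (238 ChIP and 322 control reads, fold 2.16) was smaller than that of 0 h (47 kb, fold 1.66), and the nearest 30 h island was 222 kb away.

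Hes5 showed the opposite order. Its 0 h island held 1572 ChIP reads at a fold of 2.21, and its 30 h island (chromosome 4, 154951001 to 154961000) held 409 ChIP and 507 control reads at a fold of 2.18. At 40 h no island lay within 63.1 kb, and at 96 h one of fold 2.33 was present. Calcr, the calcitonin receptor gene, had an island of 280 ChIP and 363 control reads at 30 h (fold 2.09), none within 268 kb at 40 h, and one of fold 3.13 at 96 h. Mdga2, which encodes a membrane protein of neurons, had 305 ChIP and 368 control reads at 30 h (fold 2.24) and no 40 h island within 605 kb. All 3 promoters were thus marked at 0, 30 and 96 h and unmarked at 40 h.

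A part of the changes of class lay beside an island of the other time. The nearest 30 h island lay within 5.0 kb of 257 regained promoters (37.2%), with a median distance of 10.6 kb over all 690. The nearest 40 h island lay within 5.0 kb of 261 lost promoters (31.3%), with a median of 14.0 kb. At Kcnh6, a potassium channel gene, the 30 h island lay 0.853 kb from the promoter window and the 40 h island touched the window without covering it. The edge of the island had moved from 106010001 to 106009001. At Sox2 a 40 h island lay 2.995 kb from the window. In the Cdkn2a and Cdkn2b locus on chromosome 4, whose genes encode inhibitors of the cyclin-dependent kinases that drive cells into S phase, the 30 h island ran from 89299001 to 89317000 and marked Cdkn2b, and the 40 h island ran from 89286001 to 89309000 and marked Cdkn2a. The first gene was thus counted as lost and the second as regained although the islands overlapped. Of the regained promoters, 6 lay in a deposited 30 h island that missed the FDR limit. Of the lost promoters, 19 lay in a deposited 40 h island that missed it. Stretches that the caller did not list at all are not seen in these counts.

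A list of homeobox and paired-box genes outside the Hox clusters, such as those for regulators of brain, eye and craniofacial development, held 109 promoters. The mark was on 107 of them at 0 h, 55 at 30 h, 74 at 40 h and 108 at 96 h. The list is not the whole family, since Gsc2 is not on it, and it was chosen with earlier results of these data known. Of the 52 that had been unmarked at 30 h, 25 were regained (48.1%, 34.01 to 62.37), in 24 islands, where the background was 27.6%. Of the 55 marked at 30 h, 6 were lost (10.9%, 4.11 to 22.2), where the background was 24.6%. The regained set included Barhl1, Barx1, Dbx2, Dlx1, Dlx3, Dlx4, En1, Gbx1, Gbx2, Gsx1, Lbx1, Lhx2, Lmx1b, Meox2, Msx1, Nkx1-1, Otp, Otx2, Pax2, Pax3, Pax4, Pax6 and Pou3f1. The lost set included Hmx1, Isl1, Lhx8 and Nkx2-4. More members therefore came back than left, while over all promoters more left than came back. The direction over all promoters was reversed with equal covered length in both lists and with a fold of 2 or more in every list. Some smaller lists had similar or higher shares regained, with intervals that include the background. These were 6 of 10 Adamts genes (60%, 26.2 to 87.8) and 8 of 17 synaptic and neuronal genes (47.1%, 23.0 to 72.2). Other lists had lower shares, such as 4 of 26 Zfp genes (15.4%, 4.36 to 34.9).

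Single homeobox islands show how close the changes lay to islands of the other time. At Otx2, a regulator of the anterior brain, the 40 h island held 1047 ChIP and 1596 control reads (chromosome 14, 48667001 to 48696000, fold 1.92) and a 30 h island lay 3.36 kb away. The returned domain thus lay close to an island of 30 h. Of the lost genes, Isl1 (30 h fold 1.81) had a 40 h island 2.69 kb away, and Hmx1 (30 h fold 1.82) had none within 36.9 kb.

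Control reads were low over homeobox promoters of the regained, kept and lost classes alike. The 40 h islands over regained homeobox promoters had a median of 56.8 control reads per kb, and those over kept homeobox promoters 59.2, against 61.1 over all regained promoters and 63.6 over all islands of 40 h. The 40 h islands over regained homeobox promoters had a median of 33.8 ChIP reads per kb, against 31.7 over all 40 h islands. The 30 h islands over homeobox promoters lost after 30 h had a median of 57.4 control reads per kb, against 63.7 over all 30 h islands. Islands over low control reads reach a given fold with fewer ChIP reads, and the part of control depth in the share regained was not tested.

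The 41 promoters of the 4 Hox clusters with Evx1 and Evx2, which specify position along the body axis, were all marked at 0 and 96 h, with 13 marked at 30 h and 22 at 40 h. Of the 28 unmarked at 30 h, 13 were regained (46.4%, 27.5 to 66.1), but these lay in 4 islands only. Of the 13 marked at 30 h, 4 were lost (30.8%, 9.09 to 61.4). At 0 h a single island of 349 kb covered HoxA (chromosome 6). At 30 h its 3 islands covered 28.2% of the cluster and touched no promoter, and at 40 h its 2 islands covered 53.6%. The island that returned in the middle of HoxA ran from 52214001 to 52247000, with 991 ChIP and 1387 control reads (fold 2.09), and touched the promoters of Hoxa3, Hoxa7, Hoxa9, Hoxa10 and Hoxa11. Hoxa3 was counted because the island touched the edge of its promoter window. The gene itself, which ends at 52213067, was not reached. This island held 30.0 ChIP reads per kb, below the 34.4 per kb of the island downstream of it that spanned Evx1. Its higher fold came with fewer control reads, 42.0 against 60.9 per kb.

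The other clusters differed from HoxA and from each other. HoxC went from 55.9% covered at 30 h to 77.5% at 40 h as an edge moved over Hoxc9, Hoxc10 and Hoxc11, while Hoxc6 left the other island. HoxD went from 56.3% to 65.2%. There an island of 40 kb (74671001 to 74711000, with 1159 ChIP and 1717 control reads, fold 1.98) overlapped the 30 h island that ended at 74682000. It kept Hoxd11 and Hoxd12 marked and reached on over Hoxd8, Hoxd9 and Hoxd10, while the Evx2 and Hoxd13 promoters were lost. Hoxd3 was counted as regained because the island touched the edge of its promoter window. The gene itself, which starts at 74711993, was not reached. This island held 29.0 ChIP reads per kb, fewer than any other 40 h island of the clusters, and 42.9 control reads per kb against 60.4 and 59.7 in the islands beside it. HoxB went from 51.1% to 46.0%, with no promoter regained and Hoxb2 lost, and the promoters from Hoxb3 to Hoxb9 touched no island at either time. The return at 40 h was thus seen in 3 of the 4 clusters. The regained promoters lay in gaps that the 30 h islands had left. The 5 regained Hoxa promoters were touched by an island apart from those of 30 h. Evx1 and the regained promoters of HoxC and HoxD were touched by islands that overlapped one of 30 h.

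**Figure D1:**
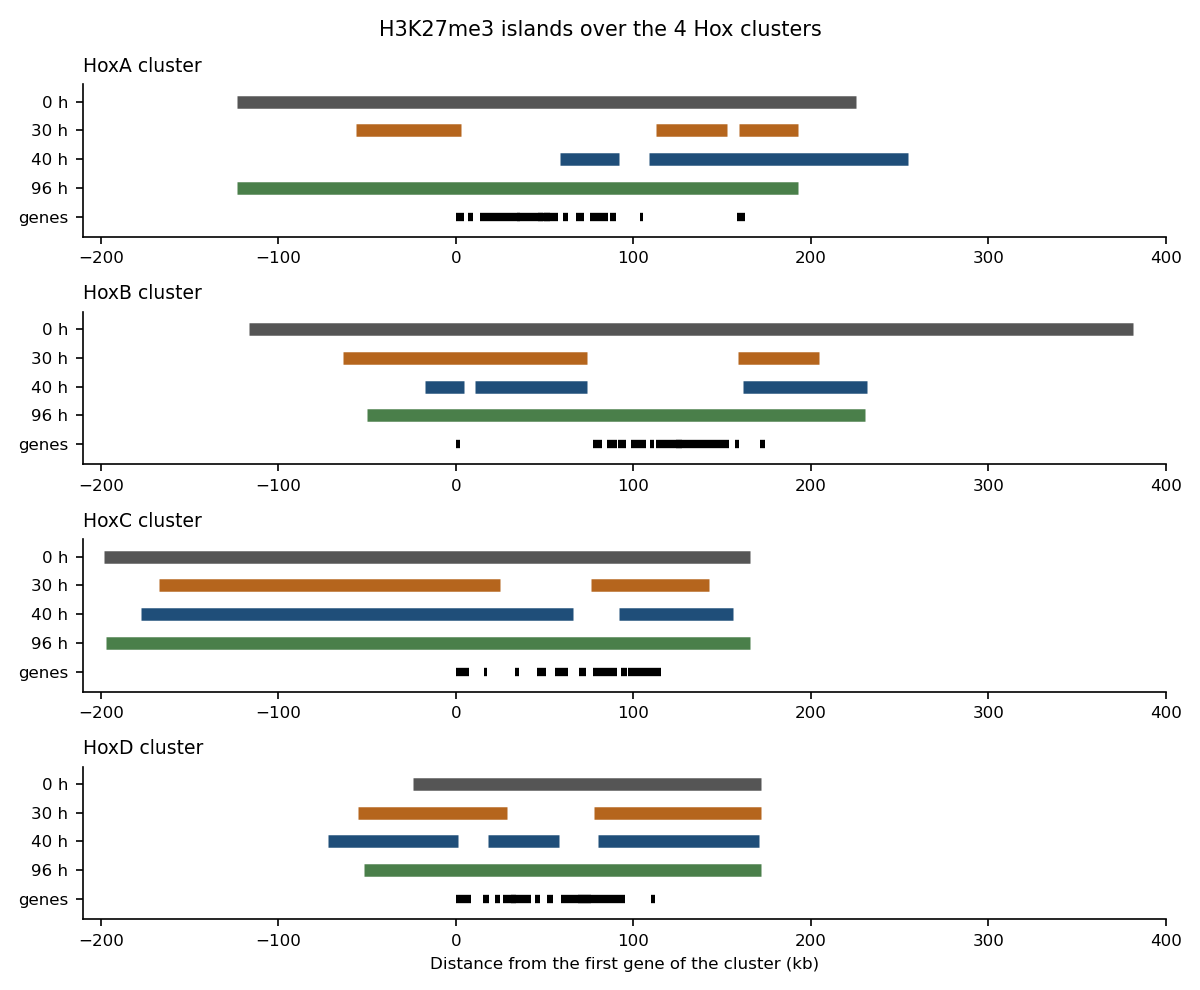
Islands of H3K27me3 at 0, 30, 40 and 96 h (bars) over the 4 Hox clusters, with genes in black below; the horizontal axis is the distance in kb from the first gene of each cluster. One island spanned each cluster at 0 and 96 h, the 30 h islands left the middle open, and at 40 h islands had entered the gap of HoxA, HoxC and HoxD and not of HoxB.

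Other families of developmental regulators had shares between those of the homeobox genes and the background, with intervals that include the background. Sox, T-box, Gata, Fox, bHLH and zinc finger regulators had the mark on 98, 61 and 64 of 102 promoters at 0, 30 and 40 h, with 13 regained (35.1% of those open to it, 20.2 to 52.5) and 10 lost (16.4%, 8.15 to 28.1). Foxd1, Foxl2 and Twist1 were among the regained and Foxc2, Gata4, Myf5 and Sox2 among the lost. Signalling genes lay at the background in both directions. Wnt, Hedgehog, Bmp and Fgf ligands and antagonists went from 57 marked at 0 h to 36 at 30 h and 34 at 40 h, with 7 regained (31.8%, 13.9 to 54.9) and 9 lost (25.7%, 12.5 to 43.3). Wnt4 and Bmp5 were among the regained and Wnt1 and Bmp7 among the lost.

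Solute carriers, the transporter genes of cell membranes, had 121 marked promoters at 0 h, 76 at 30 h and 64 at 40 h. Of these 11 were regained (22.9%, 12.0 to 37.3) and 21 lost (28.8%, 18.8 to 40.6), both within counting error of the background. Keratins, the intermediate filament genes of epithelia, had 51, 46 and 41 of 53 promoters marked at 0, 30 and 40 h. Of the 46 marked at 30 h, 8 were lost (17.4%, 7.82 to 31.4, an interval that includes the background), and these, such as Krt1, Krt2 and Krt15, lay in 5 islands. Olfactory receptor genes, which lie in large silent clusters, had 190 of 1104 promoters marked at 0 h, 184 at 30 h and 144 at 40 h. Of those unmarked at 0 h, 36 were marked at 30 h only and 17 were new at 40 h. Over all promoters unmarked at 0 h the shares were 1.28% and 1.51%. The share marked at 30 h only was higher in this list, whose neighbouring genes can share an island. Of the olfactory promoters marked at 0 h, 39 were lost (29.8% of 131, 22.1 to 38.4) and 18 regained (30.5% of 59, 19.2 to 43.9). Both shares were within counting error of the background. Of 64 histone genes, 4 had the mark at 0 h, 3 at 30 h (H1f10, H2ac22 and H2bc22) and 0 at 40 h. The number of such genes is too small for a share to be read.

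Genes of growth control and of the other cell types of liver changed in small numbers each way. Among growth factors and receptors of regeneration, Igf1r, Kdr and Ereg were regained and Egf and Igf2 lost, with 10 of 47 promoters marked at 30 h and 11 at 40 h. These were 3 of 12 open to return and 2 of 10 open to loss. Bile duct markers were marked at 5 of 17 at 30 h and 7 at 40 h, with Epcam, Krt23 and Muc1 regained (3 of 8, 37.5%, 8.52 to 75.5) and Ehf lost (1 of 5). Stellate cell and fibroblast markers went from 8 to 7 of 17, with Col1a1 and Vim regained (2 of 5) and Col1a2, Fbln2 and Lrat lost (3 of 8). Endothelial markers stayed at 5 of 18, macrophage and myeloid markers went from 9 to 8 of 18, and lymphocyte markers stayed at 5 of 20. The intervals of the shares regained and lost included the background of 27.6% and 24.6% in each of these 6 lists. None of 49 hepatocyte genes or 28 housekeeping genes was marked at 0, 30, 40 or 96 h. Of 8 defining hepatocyte markers, such as Alb and Hnf4a, 7 carried H3K4me3 in all 4 libraries, and the data did not go against the liver label.

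**Figure D2:**
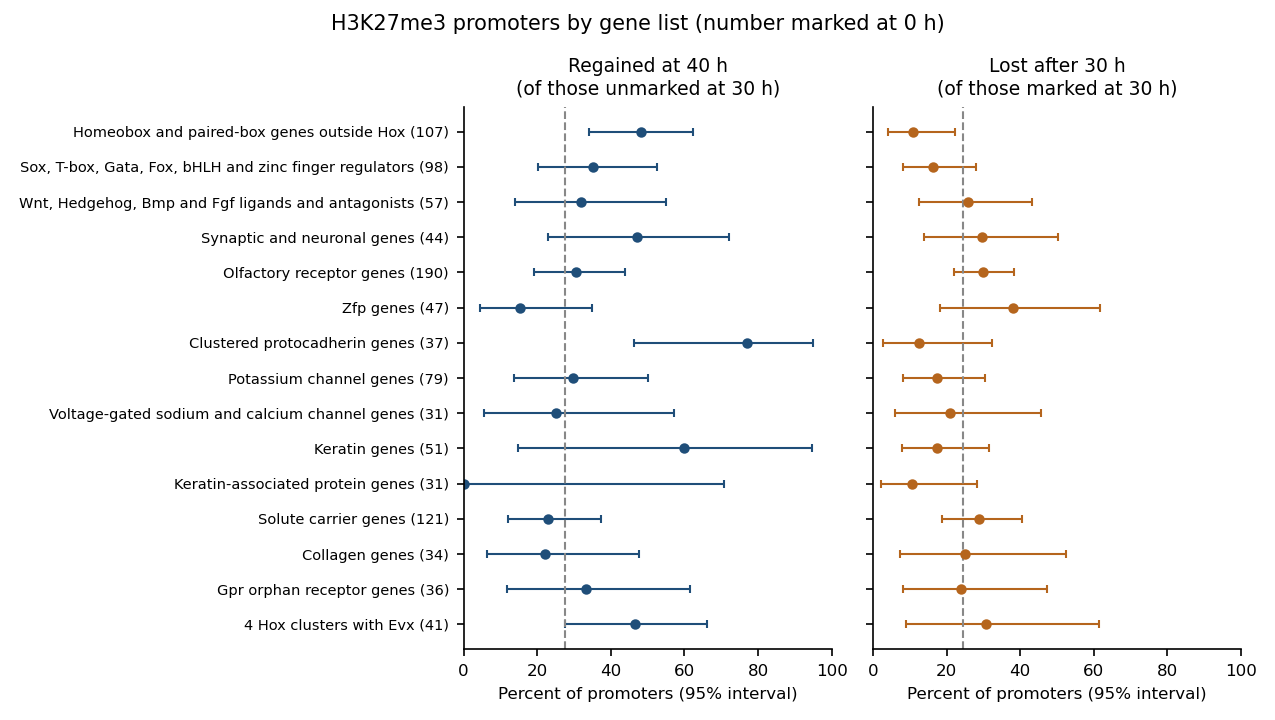
Share of promoters regained at 40 h (left, of those unmarked at 30 h) and lost after 30 h (right, of those marked at 30 h) for gene lists with at least 30 promoters marked at 0 h; points are percentages, bars exact 95% intervals for counting error, dashed lines the shares over all promoters. Homeobox genes outside Hox lie above the line at left (48.1%) and below it at right (10.9%), the clustered protocadherins of chromosome 18 lie above the line at left, and the intervals of the other lists shown include both lines.

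Promoters that gained an island at 40 h without having had one at 0 or 30 h numbered 223 (1.51% of the 14785 unmarked at 0 h), and 189 (1.28%) were marked at 30 h only. At 96 h 33.2% of the new promoters (27.04 to 39.78) were marked, well below the 82.3% of the regained. Their median CpG count was 4, and the median fold of their islands was 1.37 against 1.51 for the regained. The strongest were often neighbours of domains. The Pars2 window lay 0.069 kb from a 30 h island, that of Faim 0.373 kb, and Ess2, a splicing gene, shared its 40 h island with its regained neighbour Gsc2.

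Over the islands as such, 2826 of those of 40 h (23.4%) overlapped no 30 h island, and 2993 of those of 30 h (25.3%) overlapped no 40 h island. The first covered 59.6 Mb and the second 74.1 Mb. Of the islands seen at 40 h and not at 30 h, 1320 (46.7%) overlapped an island of 0 h and so were a return. Of those seen at 30 h and not at 40 h, 1882 (62.9%) overlapped an island of 0 h and so were a further loss. Among the returning islands 76.4% overlapped an island at 96 h, and among the 40 h islands without one at 0 h 30.1% did. An island that had been there at 0 h was therefore also more often there at 96 h. The same held for the 30 h islands that overlapped none at 40 h. Of those with an island at 0 h 75.2% overlapped one at 96 h, and of those without 41.8% did.

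Counted from the other side, 1193 of 12146 islands of 0 h (9.82%) were regained and 1784 (14.7%) were lost after 30 h, while 55.5% had an island at both times and 19.97% at neither. Of the 482 Mb under islands at 0 h, 64.2% was covered at 30 h, 56.7% at 40 h and 71.0% at 96 h. Length regained at 40 h was 12.2% of the total, and length lost after 30 h 19.7%. Covered length at 40 h was 0.907 of that at 30 h, and the 40 h library had 0.925 of the depth of the 30 h library, as the ChIP to control scale of the lists gives it. With equal covered length in both lists, the promoters regained outnumbered those lost by 12 in place of the 143 by which they fell short, so the net direction over all promoters depended on how much of the genome each list covered.

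Short islands were the least covered at both times and long ones the most. The share of 0 h length covered went from 32.9% at 30 h to 28.7% at 40 h for islands under 10 kb, and from 78.7% to 71.1% for those of 100 kb and over. The islands absent at both times made up 52.7% of the shortest class and 0.588% of the longest. Regained islands were most frequent at 10 to 25 kb (13.7%) and rarest at 100 kb and over (0.235%), where loss and return took place inside islands. Length was lower at 40 h in each of the 5 length classes, by 4.19 to 9.28 percentage points.

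By gene position the difference between the times was smallest within 5.0 kb of a gene and largest in gene bodies. Islands of 0 h that touched a promoter went from 68.9% to 62.7% covered, those within 5.0 kb of a gene from 60.9% to 58.1%, those in gene bodies from 59.58% to 50.04%, and those over 5.0 kb from any protein-coding gene from 59.7% to 51.0%. By fold at 0 h, in 5 equal groups, the weakest islands went from 43.9% to 34.5% and the strongest from 74.3% to 71.7%. The strongest domains thus stood closest to their 30 h extent. Control reads moved with coverage. The 0 h islands were put in 5 equal groups by control reads per kb. Of the group with the fewest, 32.3% had no island at either time, against 14.14% to 18.99% in the others. Coverage was 2.70 points lower at 40 h in the group with the fewest control reads and 13.6 points lower in the group with the most. Their part in these classes was not tested.

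**Figure D3:**
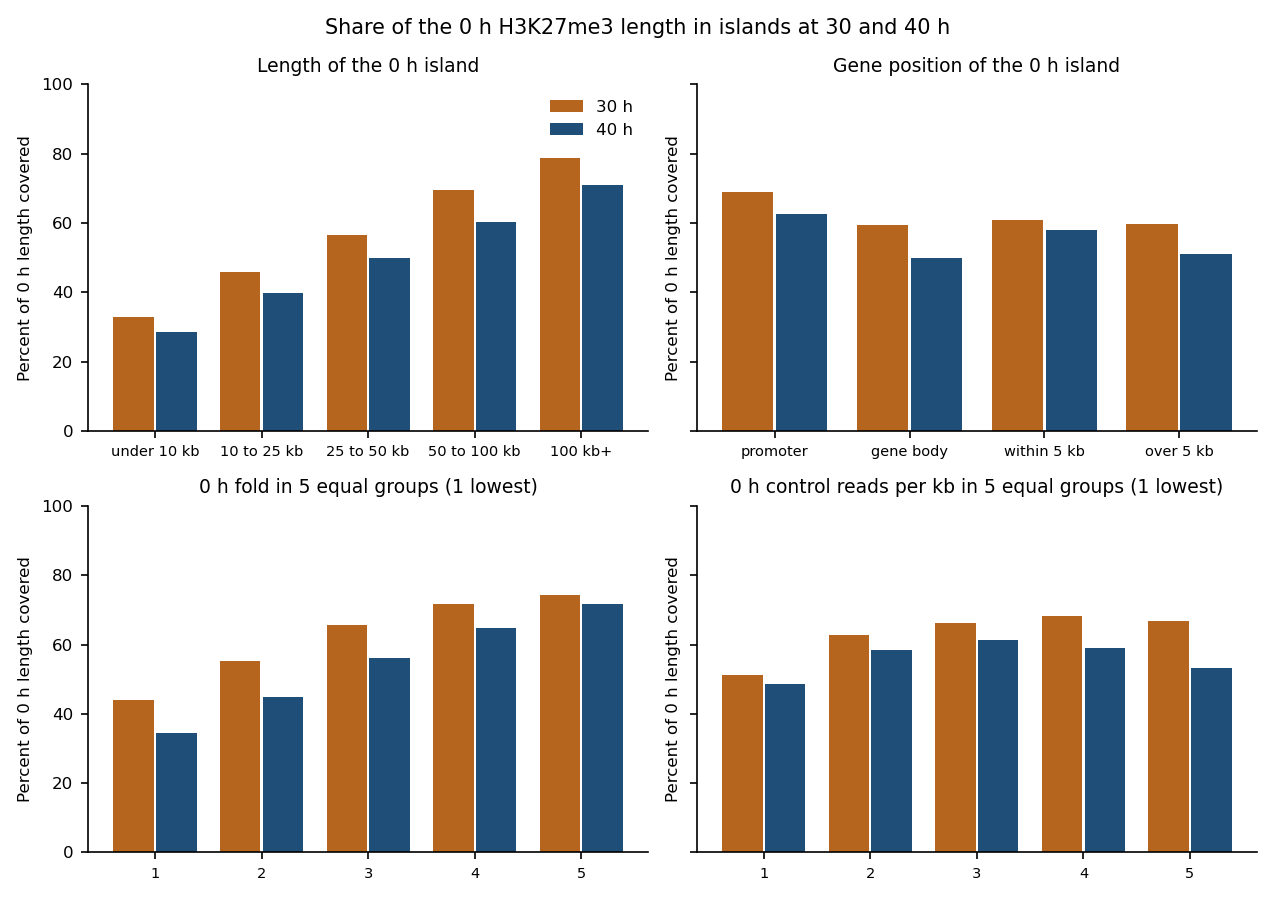
Percent of the 0 h H3K27me3 length in islands at 30 h (brown) and 40 h (blue), by length, gene position, fold and control reads per kb of the 0 h island. Bars start at 0 and are single values of 1 library each; 40 h lies below 30 h in every class, with the 2 closest in the group of highest fold (74.3% and 71.7%).

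Chromosome 18 stood apart from the other 18 chromosomes. Its share of 0 h length covered was 64.6% at 30 h and 73.6% at 40 h, higher by 9.02 points. In the others the share was lower at 40 h, by 4.19 points on chromosome 19 to 11.8 points on chromosome 15. Its islands numbered 403 at 30 h and 607 at 40 h, a ratio of 1.51 where the others ranged from 0.925 to 1.08, and their length went from 13.8 to 19.9 Mb. No 30 h island overlapped 41.7% of its 40 h islands. Reads inside islands called at both times did not follow to the same extent, with a median log2 ratio per kb of 0.04 over 44 pairs. Its islands of 40 h had 63.3 control reads per kb, where the others had 63.3 to 98.1, and at 96 h its islands covered 15.6 Mb. The clustered protocadherins, adhesion genes of neurons that lie there, went from 26 marked at 30 h to 41 at 40 h of 57, with 10 regained in 3 islands and 8 new. What set chromosome 18 apart in these 2 libraries was not tested. Without it 655 promoters were regained (11.5%) and 821 lost (14.4%), and the homeobox counts were the same. With only islands of fold 2 or more in every list, chromosome 18 held 1 island at 30 h and 3 at 40 h, and the difference in covered share was 0 points.

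**Figure D4:**
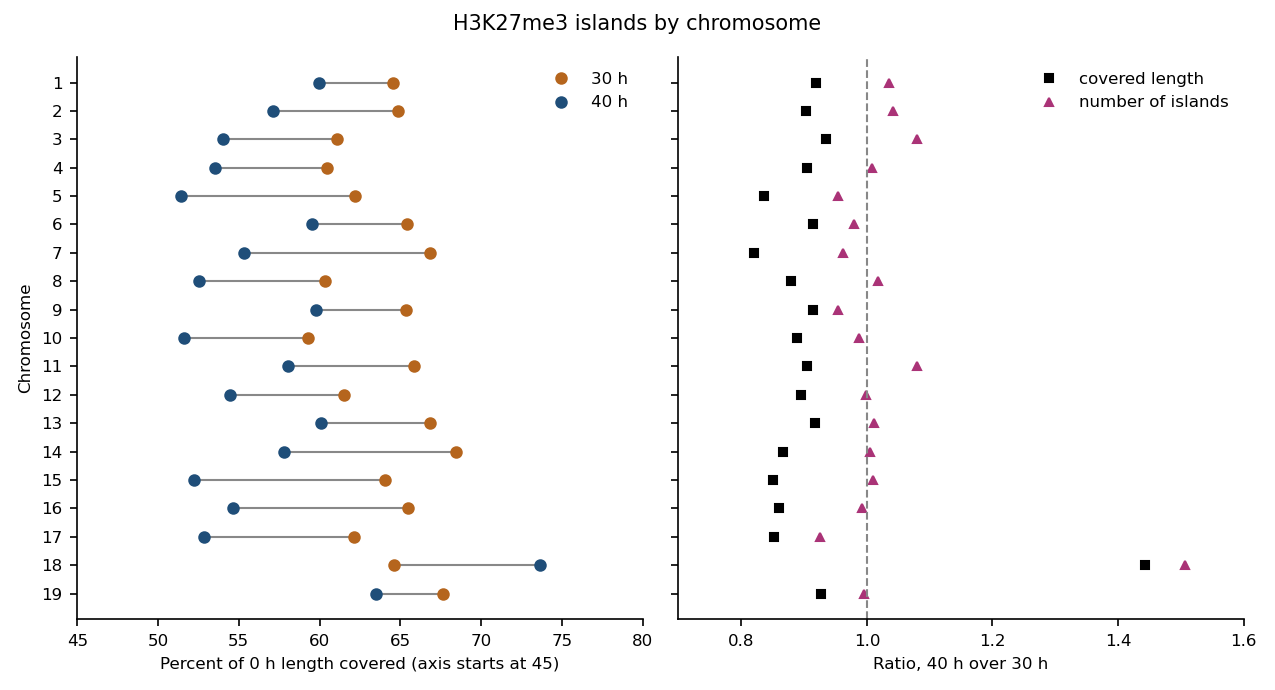
Left, percent of the 0 h H3K27me3 length covered at 30 h (brown) and 40 h (blue) for each chromosome, on an axis that starts at 45; right, ratio of 40 h to 30 h for covered length (squares) and number of islands (triangles), with 1 as the dashed line. Chromosome 18 alone moved to the right, from 64.6% to 73.6%, and alone had a ratio of length above 1.

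Read counts were compared where the same stretch was called at both times. The 97 islands with identical bounds had equal control reads in 97 cases, so their ChIP reads could be compared after division by depth. The median log2 ratio of 40 h to 30 h was -0.02, and the range was -0.35 to 0.43. With a log2 ratio of 0.32 either way as the limit, 1 island (1.03%) was lower and 1 (1.03%) was higher. The lowest, a 1 kb island in the body of Spred2 on chromosome 11 (20000001 to 20001000), had 124 reads at 30 h and 90 at 40 h, a depth-scaled ratio of 0.784 whose counting interval of 0.591 to 1.04 includes 1. The highest, on chromosome 16 from 3111001 to 3130000 over 5.0 kb from any gene, had 3005 and 3755 reads, a ratio of 1.35 (1.29 to 1.42). It held 158 reads per kb at 30 h, far more than the 36.3 per kb of the list.

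Over the 1474 pairs of islands that covered each other by 80% or more, the median log2 ratio of reads per kb was -0.00, with quartiles of -0.06 and 0.06. Of these 2 (0.136%) were lower and 7 (0.475%) higher past the same limit. The lower pair of largest change lay at the promoter of Ctnnd2, a catenin gene of neurons, with 691 reads over 16 kb and 614 over 20 kb (ratio 0.768, 0.688 to 0.858). Of the 7 that were higher, 3 were on chromosome 17, over Glp1r, over H2-Q6 and H2-Q7 and over Dynlt1a and Dynlt1b, and the reads of near-identical copies such as the last pairs may be shared between them. In pairs with nearly the same bounds, read density therefore hardly differed after scaling by depth. Of the 30 h islands, 8840 met an island of 40 h, and those whose bounds differed more were not compared in reads. The lists differed in which stretches were called and how far they reached. Pairs had to pass the caller at both times, which favours ratios near 1.

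**Figure D5:**
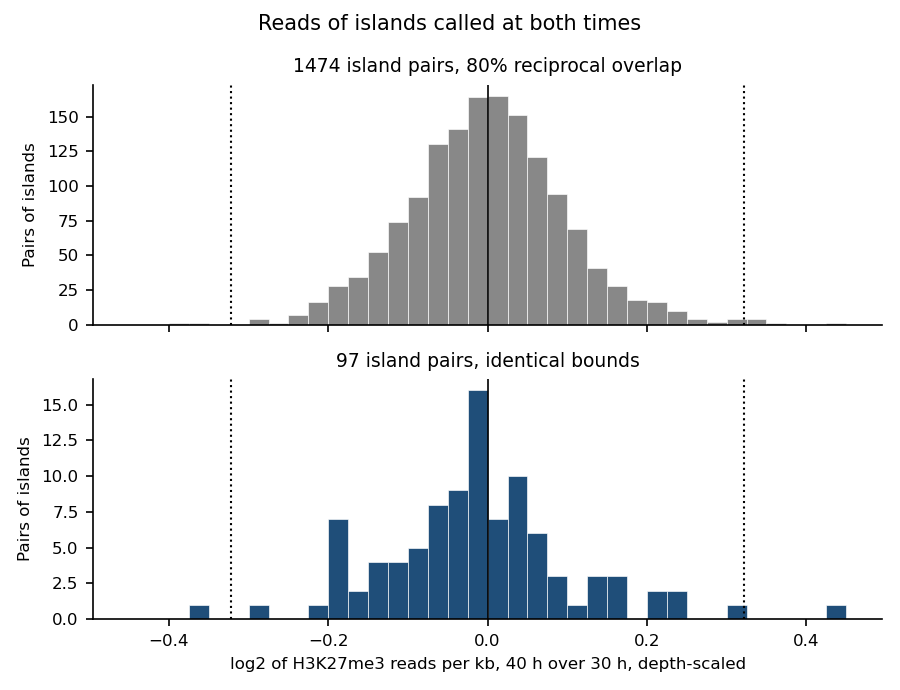
Number of island pairs by log2 ratio of depth-scaled H3K27me3 reads per kb at 40 h over 30 h, for 1474 pairs with 80% reciprocal overlap (top) and 97 with identical bounds (bottom); dotted lines mark a log2 ratio of 0.32 either way. Both are centred near 0, and 9 and 2 pairs lie outside the dotted lines.

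Edges moved both ways, more often inwards. Among 4910 cases in which 1 island of 30 h met 1 of 40 h, the 40 h island was shorter in 2665 (54.3%), longer in 2016 and equal in 229, with medians of 27 kb and 25 kb. On chromosome 18, 103 of 174 were longer. A further 899 islands of 30 h were split into 1959 at 40 h, and 1378 islands of 30 h had merged into 650. Islands over 100 kb numbered 836 at 0 h, 377 at 30 h, 272 at 40 h and 519 at 96 h. There were thus more cases of splitting (899) than of merging (650), although more islands of 30 h took part in merging (1378).

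The longest islands that appeared at 40 h included one of 94 kb over Naip6, an innate immune sensor gene (chromosome 13, 100266001 to 100360000, fold 1.62). It lay wholly in 0 h and 96 h islands and held 5980 ChIP and 10794 control reads. Another of 74 kb lay in the body of Srgap3 on chromosome 6 (fold 1.48), with 2344 ChIP and 4649 control reads. Control reads were thus dense over the Naip6 island. The longest that disappeared after 30 h was one of 219 kb on chromosome 8 (20493001 to 20712000), with 21179 ChIP and 56369 control reads and a fold of only 1.02, followed by one of 116 kb on chromosome 15 (fold 1.36). One of 101 kb over Sfi1 on chromosome 11 had a fold of 1.11 and 68905 control reads. The long islands of low fold and many control reads rest on a small excess over control in each library.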

How the data were processed

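Libraries of 1 WT liver sample each at 0, 30, 40 and 96 h were used. Trimmomatic, FastQC 0.11.5, BWA, Picard and SICER were run by the authors, per the submitters' processing notes, with the builds GRCm38.p4 and mm10. Per the names of the deposited lists, SICER used 1000 bp windows and gaps of 4000 bp. The deposited lists hold unscaled read counts of ChIP and control in every island, the authors' fold over control (a ratio scaled to library size), and a p-value with its FDR as deposited. H3K4me3 peaks served for positions only, and the other WT baseline H3K27me3 list for positions at the same FDR limit. Which control served each list is not given in the sources used here. Control counts were equal in 250 of 250 deposited islands with the same bounds at 30 and 40 h, in 221 of 221 at 30 and 96 h, and in 1 of 133 at 0 and 30 h. Relative depth was the ChIP to control scale (ChIP reads over control reads over fold), 0.369 at 30 h and 0.342 at 40 h. ChIP reads in islands numbered 21724770 at 0 h, 15161913 at 30 h, 12757716 at 40 h and 21354795 at 96 h.

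Islands on chromosomes 1 to 19 with an FDR up to 0.01 were kept, so that 589 were dropped at 30 h and 612 at 40 h. Genes and starts came from RefSeq tables of GRCm38.p6. An annotated start was used for 16457 genes, the gene end with more H3K4me3 for 2753 and both ends for 1455, and the 511 genes of chromosome 18 were placed without annotated starts. An overlap of 1 bp counted. Neighbouring genes can share an island, so promoters are not independent. Chromosome X, with 8 islands at 30 h and 9 at 40 h, entered as an alternative only. Of 723 listed symbols 708 were matched. Named genes are those of the 10 strongest islands of each class and up to 5 members of each class per list by fold, without predicted genes. Further members of a class in a list are also named, and some genes that the rule names are not reported here. Sequences and other examples were chosen after their values were seen. Members and lists were chosen with earlier results of these data known. The code for class calls was checked on simulated islands, with the 20665 genes scored. It found 200 of 200 planted regained and 200 of 200 planted lost promoters. Each planted island spanned the whole promoter window, so calls at island edges and the limits of the caller were not checked. A further 12 promoters were called, and all 12 belonged to genes with several candidate starts, 1 or more of which lay in a planted island of the same class. The tools were Python 3.11.15, scipy 1.17.1, pandas 2.3.3, numpy 2.4.6 and matplotlib 3.10.9.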

Additional observations from a re-analysis of the deposited data

How the results depend on the processing

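Each value rests on 1 library, so leaving out a replicate was not possible. No paired analysis was possible because each time has 1 library. The counts of regained and lost promoters stayed within 1.5 times of 690 and 833 under every alternative but a fold of 2 or more in every list, which left 23 and 8 promoters, 84 islands of 40 h and 43 of 30 h without a counterpart, and 1.71% and 0.334% of 0 h length regained and lost. That limit kept 55 islands at 30 h and 96 at 40 h, and the chromosome 18 difference of 9.02 points became 0 under it and was 7.35 to 10.4 points under the other alternatives run. Regained minus lost promoters, -143 as reported, became 15 under that limit and 12 with equal covered length. The percentages of 0 h length regained and lost were 12.0% and 19.3% with no FDR filter, 13.8% and 18.2% with equal covered length, 12.4% and 19.1% against the other WT baseline library, 12.8% and 19.1% against 96 h, and 12.0% and 19.9% without chromosome 18, an alternative chosen after seeing the data. When 50% of an island had to be covered, 4535 islands of 30 h had no counterpart at 40 h. Scaling by reads in islands in place of depth moved the median log2 ratio of identical islands from -0.02 to 0.12. The number of those lower at 40 h, 1 as reported, was 8 with no FDR filter, 2 with 80% overlap, and 0 with an FDR of 1e-05 or below, with scaling by reads in islands and at 1.5-fold. Homeobox promoters outside Hox regained outnumbered those lost under all 10 alternatives run, by 3 under the fold limit and by 15 to 20 otherwise.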
